A study of Caenorhabditis elegans with 24 samples.

Results

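RNA of whole Caenorhabditis elegans carrying pqm-1(rhd90) was compared with RNA of whole animals carrying pqm-1(ok485), in worms whose ceh-60 gene was intact. The comparison takes 6 of the 24 libraries of the study: 3 of strain DLS424, genotype pqm-1(rhd90), and 3 of strain DLS421, genotype pqm-1(ok485), all on day 1 of adulthood and all chosen by their labels. A second set of 6 libraries carries the same alleles together with ceh-60(ok1485), 3 of strain DLS423, ceh-60(ok1485);pqm-1(rhd90), and 3 of strain DLS420, ceh-60(ok1485);pqm-1(ok485), also on day 1; these are called ceh-60;pqm-1(rhd90) and ceh-60;pqm-1(ok485). Wild type N2 on day 1, 3 libraries, was counted in a separate table and is given only as a level. The labels do not say what either pqm-1 allele alters, whether the strains were outcrossed, or how the animals with a pqm-1 allele were grown. Nor do they tell whether the replicates came from separate cultures, so the p-values cover the spread between these libraries, which may be technical.

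PQM-1 is a zinc finger transcription factor of the intestine, known for acting opposite to DAF-16, the FOXO factor of insulin signalling, and for a part in the control of yolk genes together with CEH-60, a homeodomain protein of the PBX family. The adult intestine makes yolk proteins for the oocytes, digestive proteases, detoxification enzymes and secreted immune proteins. A comparison of 2 alleles of the same gene asks in which transcripts the strains that carry them differ.

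Between 19725463 and 30921124 reads per library were assigned to genes. The most deeply sequenced of the 6 was replicate 1 of pqm-1(ok485), and it also stood apart. On the first principal component of the 12 libraries, which held 46.8% of the variance, it lay at 4.34, while the other pqm-1(ok485) libraries lay at 42.2 and 31.6 and the pqm-1(rhd90) libraries between -48 and -30.7. Its counts differed from those of the other pqm-1(ok485) replicates with a chi-square of 27.5 and 22.2 per degree of freedom, while the other replicates gave 4.66 against each other. This measure also grows with depth. Replicates 1 and 2 gave the highest value in the other groups too: 13.8 in pqm-1(rhd90), 18.1 in ceh-60;pqm-1(rhd90) and 11.9 in ceh-60;pqm-1(ok485). On the first component replicate 1 was lowest of its group in ceh-60;pqm-1(rhd90) (-43.6) and ceh-60;pqm-1(ok485) (25.4), but not in pqm-1(rhd90). Counts without replicate 1 of pqm-1(ok485) are given beside the gene lists that it moved most. Levels are CPM, counts scaled by library size after TMM normalization. Fold changes are log2 ratios of pqm-1(rhd90) over pqm-1(ok485) with their SE. A gene is called, and is said to have risen or fallen, at a Benjamini-Hochberg adjusted p under 0.05 in edgeR's quasi-likelihood test, with n = 3 libraries a group.

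The mutated gene itself differed between the strains. pqm-1 (reverse strand of chromosome II, 11150299 to 11152600, WBGene00004096 in WormBase release 260, the annotation of all coordinates here) stood at 13.3, 15.3 and 14.3 CPM in pqm-1(rhd90), against 6.15, 5.87 and 5.57 CPM in pqm-1(ok485). All 3 pqm-1(rhd90) libraries lay above all 3 pqm-1(ok485) libraries, and the log2 fold change was 1.28 ± 0.10 (edgeR adjusted p = 2.1e-05). The N2 libraries had 11.44, 11.45 and 10.8 CPM, between the levels of the 2 strains. ceh-60 (reverse strand of chromosome X, 6522596 to 6530148, WBGene00017690) stood at 7.66, 8.56 and 8.14 CPM in pqm-1(rhd90), against 8.68, 9.11 and 7.5 CPM in pqm-1(ok485); the groups overlapped and the gene was not called (log2 fold change -0.06 ± 0.15, edgeR adjusted p = 0.87). Counts over a whole gene do not tell whether the transcript is functional.

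**Figure D1:**
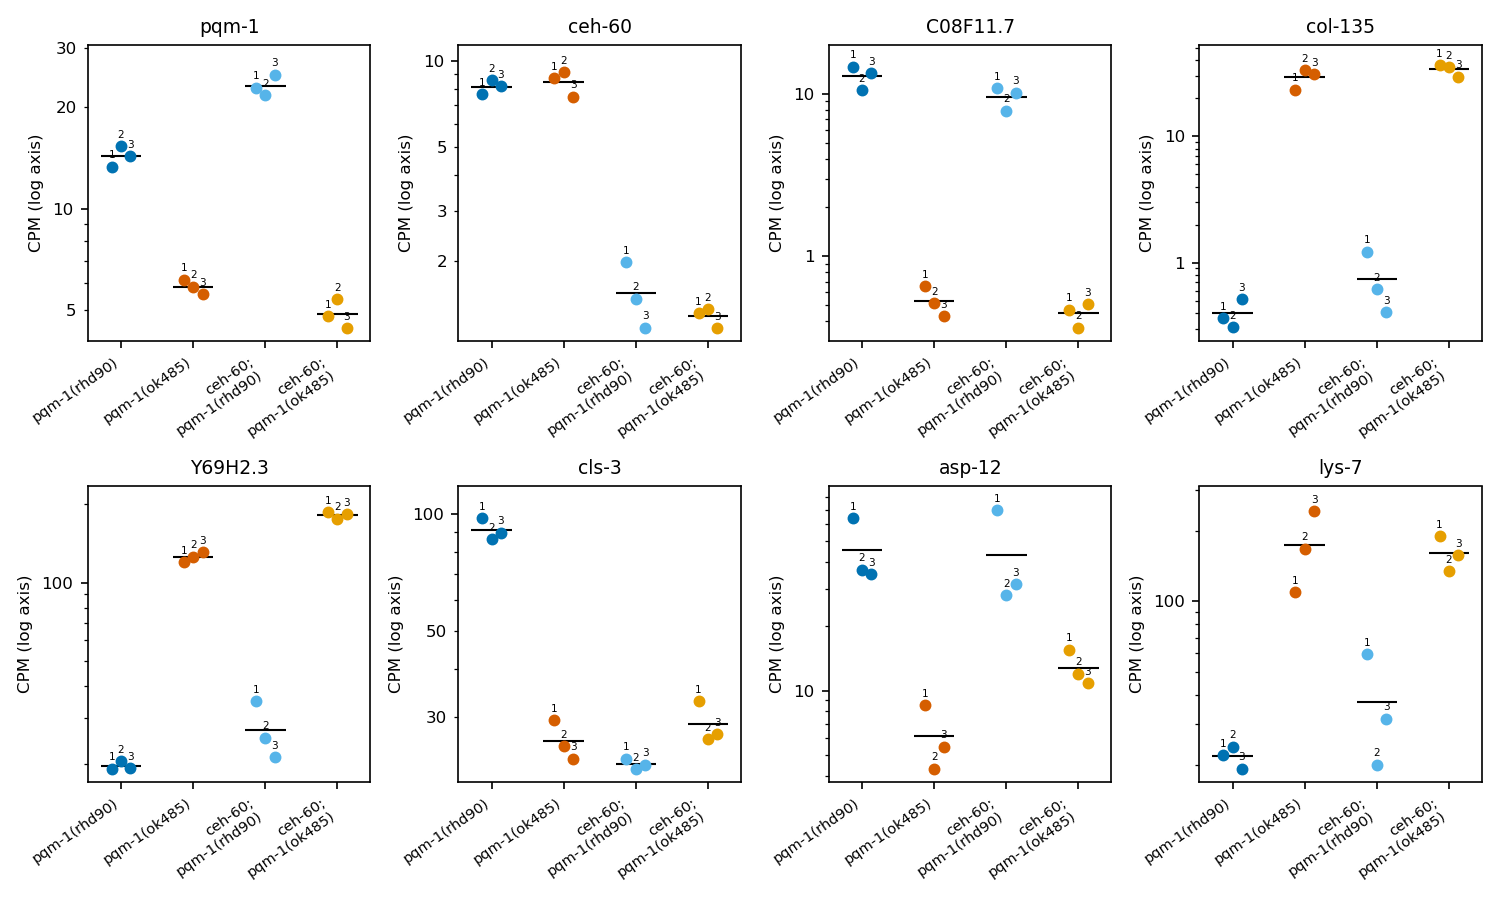
Level of 8 genes in CPM (log axis) in each library of pqm-1(rhd90), pqm-1(ok485), ceh-60;pqm-1(rhd90) and ceh-60;pqm-1(ok485); each point is 1 library with its replicate number, and the line is the mean of 3. pqm-1, C08F11.7 and asp-12 are higher with rhd90 and col-135, Y69H2.3 and lys-7 lower in both ceh-60 states, ceh-60 is low in the mutants of that gene, and cls-3 is high in pqm-1(rhd90) alone.

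In total 984 of 13324 genes tested were called, 7.39% of them. Falls were more frequent: 762 genes (5.72%) fell and 222 (1.67%) rose in pqm-1(rhd90). Changes of at least 2-fold were found in 570 genes (4.28%), of which 501 fell and 69 rose. The genes that fell were mostly weakly expressed, since 66.8% of them had a mean below 5 CPM, against 31.5% of those that rose and 38.3% of all genes tested. The groups did not overlap for 981 of the 984 genes called, where 3174 of all genes tested (23.8%) did not overlap. The median over all genes tested was -0.002.

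The size of the list depended on single libraries and on the tool. Without replicate 1 of pqm-1(ok485) it grew to 2186 genes, 1018 higher and 1168 lower. It shrank to 425 without replicate 2 and 616 without replicate 3 of that strain, and to 349 without replicate 1 and 187 without replicate 3 of pqm-1(rhd90). With the replicate number as a block it held 2069 genes, 732 higher and 1337 lower, and DESeq2 called 1288, 430 higher and 858 lower.

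**Figure D2:**
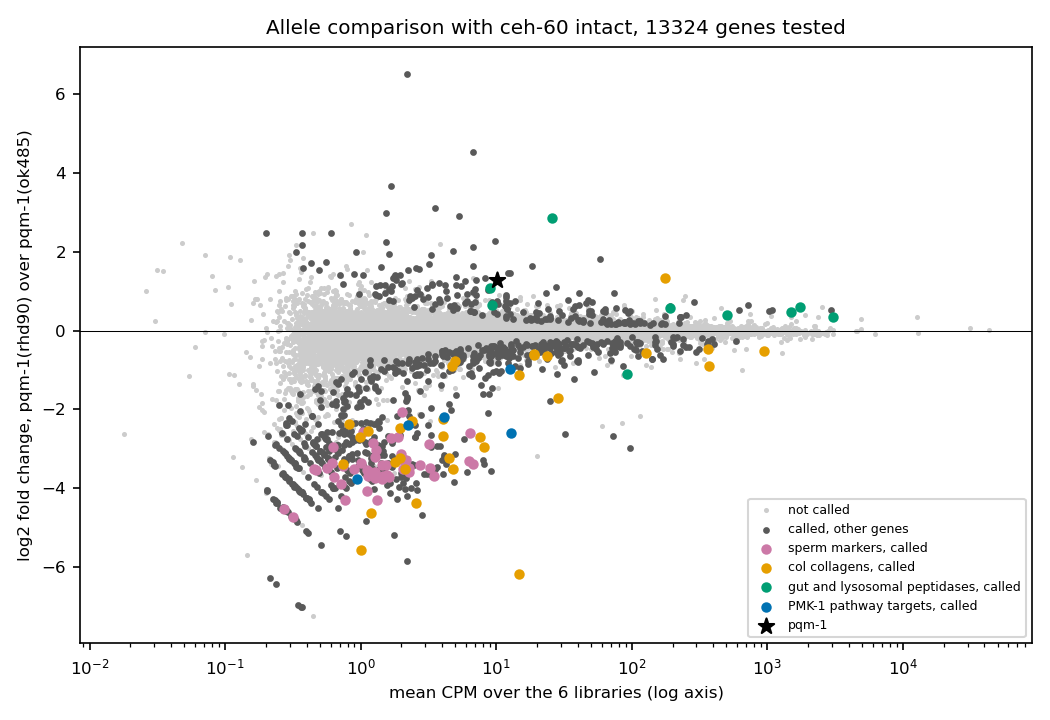
Log2 fold change of pqm-1(rhd90) over pqm-1(ok485) against mean CPM over the 6 libraries (log axis) for the 13324 genes tested; grey points are not called, and the coloured points are called members of 4 gene lists and pqm-1. Sperm markers lie among the weakly expressed falls. The col collagens are falls from weak to abundant levels, apart from col-95, which rose. The gut and lysosomal peptidases are rises, mostly of abundant genes, apart from asp-14, which fell.

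In the fit without the replicate block no yolk protein gene was called between the alleles. The 6 vitellogenins together took 9.74%, 9.40% and 9.80% of all counts in pqm-1(rhd90), against 10.3%, 7.86% and 9.21% in pqm-1(ok485). The pqm-1(rhd90) libraries lay within the range of the others. Means were 9.65% ± 0.218 in pqm-1(rhd90) and 9.11% ± 1.2 in pqm-1(ok485) (SD, n = 3 each), and a two-sided exact permutation test of the difference of 0.541 points gave p = 0.6, where 0.1 is the smallest that 3 against 3 libraries allow. Without replicate 2 of pqm-1(ok485) the difference was -0.0821 points. None of the 6 genes was called, with log2 fold changes between 0.01 for vit-6 and 0.34 for vit-4 and vit-5. vit-4 had 2620.1, 2568 and 2763 CPM in pqm-1(rhd90), against 2194, 1829.7 and 2237 CPM in pqm-1(ok485), with no overlap (log2 fold change 0.34 ± 0.11, edgeR adjusted p = 0.0773). It passed with the replicate block (edgeR adjusted p = 0.00802), with no filter on low counts (edgeR adjusted p = 0.0264), without replicate 1 of pqm-1(ok485) (edgeR adjusted p = 0.0372) and with DESeq2 (adjusted p = 0.00219). vit-4 did not pass with RLE scaling (edgeR adjusted p = 0.0671), with the 6 compared libraries alone (edgeR adjusted p = 0.0993) or in the 5 other fits that left out 1 library. Since multi-mapping reads were left out of the counts, the split among vit-5, vit-4 and vit-3, which are near copies, is uncertain. Of the other known regulators of yolk genes tested (unc-62, ceh-60, lin-29, elt-2, daf-16, sgk-1, rict-1 and daf-2), none was called; pqm-1 was the 1 call among 9.

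Sperm genes were the group with the largest fall. Caenorhabditis elegans hermaphrodites make sperm before they switch to oocytes, and the transcripts of major sperm proteins (msp genes), the ssq and nspd families and the sperm phosphatases gsp-3 and gsp-4 belong to spermatogenesis. Of 66 such genes, 52 passed the filter on low counts, and 48 of those fell and 0 rose, with log2 fold changes between -4.74 and -2.07; the median over the 52 was -3.46. Because many members pass the filter only through the libraries where they are high, the sum over all 66 is given too: 22.2, 31.7 and 17 CPM in pqm-1(rhd90), against 100, 232.2 and 159.3 CPM in pqm-1(ok485). Every pqm-1(rhd90) library lay far below every pqm-1(ok485) library. At least 10 counts in every library of a strain were found for 7 of the 66 genes in pqm-1(rhd90) and for 50 in pqm-1(ok485).

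nspd-1 had 0.573, 0.612 and 0.361 CPM in pqm-1(rhd90), against 3.55, 8.03 and 6.22 CPM in pqm-1(ok485) (log2 fold change -3.50 ± 0.55, edgeR adjusted p = 0.00473). msp-57 had 0.208, 0.357 and 0.103 CPM in pqm-1(rhd90), against 2.11, 3.85 and 3.06 CPM in pqm-1(ok485) (log2 fold change -3.71 ± 0.58, edgeR adjusted p = 0.00473). In both genes the groups were well apart, and within pqm-1(ok485) replicate 2 was highest and replicate 1 lowest. Among genes of at least 5 CPM, ssq-2 (-3.38) and ssq-4 (-3.31) were among the 12 largest falls (edgeR adjusted p = 0.0104 and 0.0103). N2 libraries, scaled in their own table, had summed sperm marker levels of 25.6, 61.2 and 17.2 CPM over the 52 genes. Over the same 52 genes the sums were 21.7, 31.3 and 16.7 CPM in pqm-1(rhd90), against 99.1, 230.6 and 158.5 CPM in pqm-1(ok485). The strain far from the wild type level was thus pqm-1(ok485). Without replicate 3 of pqm-1(rhd90) only 8 members were called and without replicate 1 of that strain 23, while the median stayed between -3.78 and -3.06 whichever library was left out. Whole animals were sequenced, so fewer cells of a type and less RNA per cell cannot be told apart, here and below. Counts of near-identical msp genes are uncertain individually.

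Markers of other germ cells gave no call. None of 24 germline markers, 22 oocyte and eggshell markers or 36 early embryo markers was called, and their medians were -0.007, 0.001 and 0.11. Without replicate 1 of pqm-1(ok485) 2 germline markers and 3 early embryo markers rose and 1 germline marker fell. Of 11 male markers, 1 was expressed enough to be tested and it was not called. Many other falls shared the order that the sperm sum had among the pqm-1(ok485) libraries. Those libraries had the same order on the first principal component, at 42.2, 31.6 and 4.34 for replicates 2, 3 and 1. The order of the sperm sum among the pqm-1(ok485) replicates (2 highest, then 3, then 1) was shared by 392 of 762 genes that fell (51.4%), by 346 of the 714 outside the sperm list (48.5%), by 19 of 222 that rose (8.56%) and by 17.6% of all genes tested. The part of sperm content in those other falls was not tested.

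Other large falls among genes of at least 5 CPM included gipc-1 (-3.58 ± 0.67) and gipc-2 (-3.39 ± 0.60), which encode PDZ proteins of the GIPC family, nsph-3.2 (-3.56 ± 0.62), R09E10.6 (-3.29 ± 0.65) and F49C12.15 (-2.75 ± 0.43), with edgeR adjusted p between 0.00472 and 0.0112. gipc-1 had 0.885, 1.53 and 0.361 CPM in pqm-1(rhd90), against 6.35, 17.1 and 10.2 CPM in pqm-1(ok485). The strains were far apart, and the pqm-1(ok485) replicates again stood in the order 2, 3, 1. By chromosome, 10.8% of tested genes were called on IV, where many sperm genes lie, 9.73% outside the sperm list, and between 4.78% and 7.79% on the other autosomes and X.

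**Figure D3:**
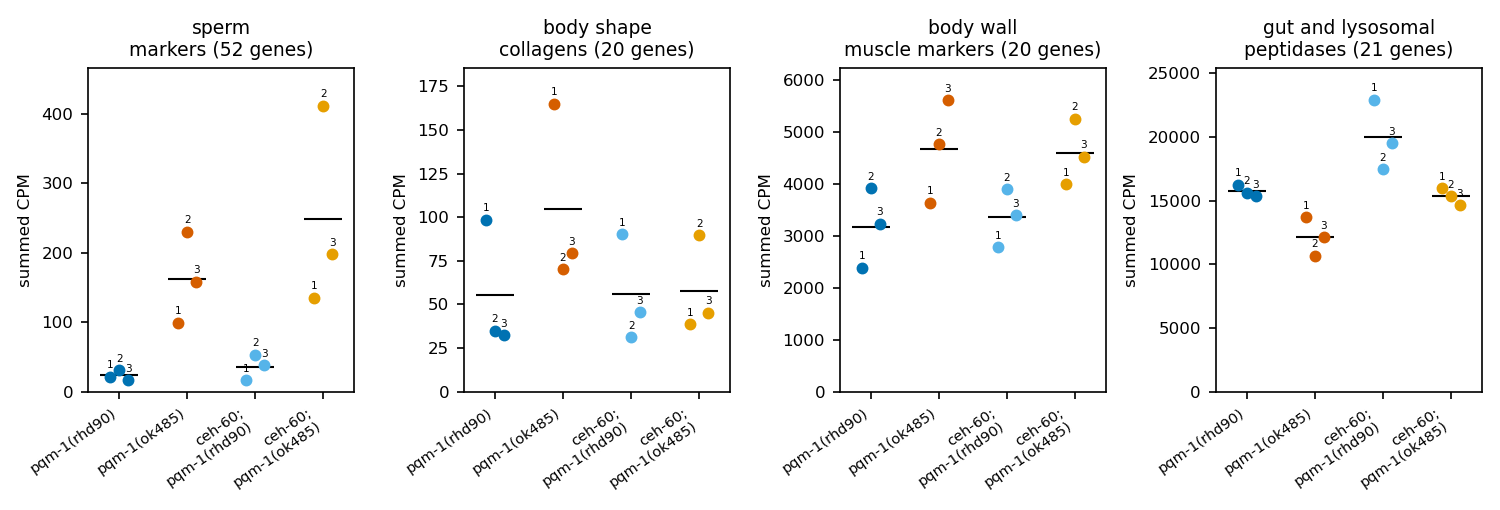
Summed CPM of the tested members of 4 gene lists in each library of the 4 groups; points are libraries with their replicate number, lines are means of 3. Sperm markers are low in both rhd90 groups, peptidases are higher in pqm-1(rhd90) than in pqm-1(ok485), and body shape collagens are spread widely within every group.

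Genes of the cuticle and of muscle were lower in pqm-1(rhd90), but less uniformly. Collagens are the structural proteins of the cuticle, made by the epidermis around each moult. Of 92 col collagen genes tested, 30 fell and 1 rose, with a median of -1.12. The called share was 33.7%, against 7.39% of all genes tested. Many members are weakly expressed and passed the filter through pqm-1(ok485), since 57 of 156 had at least 10 counts in every pqm-1(rhd90) library and 82 in every pqm-1(ok485) library. The sum over all 156, which the abundant members set, was 12481 and 16953 and 15270.4 CPM in pqm-1(rhd90), against 17150.5 and 17065 and 19218 CPM in pqm-1(ok485) in the order of the replicates, so the strains almost touched. The largest fall of the whole comparison among genes of at least 5 CPM was col-135 (reverse strand of chromosome IV, 15129666 to 15131797, WBGene00000708), which had 0.365, 0.306 and 0.515 CPM in pqm-1(rhd90), against 23.4, 33.4 and 31 CPM in pqm-1(ok485). The groups were apart by more than an order of magnitude, at a log2 fold change of -6.19 ± 0.29 (edgeR adjusted p = 2.77e-07); N2 had 23.6, 20.7 and 19.9 CPM, close to pqm-1(ok485).

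col-39 (-2.95 ± 0.66), col-92 (-2.69 ± 0.49) and col-160 (-0.90 ± 0.15) also fell, with edgeR adjusted p between 0.00543 and 0.0191. col-160 is abundant, at 205, 324 and 252 CPM in pqm-1(rhd90), against 447, 483 and 527 CPM in pqm-1(ok485), with all pqm-1(rhd90) libraries below the others. col-95 was the member that rose, at 313, 180.3 and 260.0 CPM in pqm-1(rhd90), against 152, 60.3 and 87.5 CPM in pqm-1(ok485) (log2 fold change 1.32 ± 0.33, edgeR adjusted p = 0.0319); it was not called in 4 of the 6 fits that each left out 1 library. The neighbours col-92, col-93 and col-94 on chromosome III fell together. The number of col genes that fell ranged between 3, without replicate 3 of pqm-1(rhd90), and 51, without replicate 1 of pqm-1(ok485), and was 61 with the replicate block, with the median between -1.12 and -0.94 whichever library was left out.

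Among 20 body shape collagens, the dpy, sqt, rol and bli genes whose mutants are dumpy, rolling or blistered, 5 fell (bli-1, dpy-5, sqt-1, dpy-13 and bli-6) and none rose, with a median of -1.27. The called share was 25%, against 7.39% of all genes tested. Of the 20, 10 averaged below 1 CPM. At least 10 counts in every library were found for 5 members in pqm-1(rhd90) and for 14 in pqm-1(ok485), so members could pass the filter through pqm-1(ok485). dpy-5 had 0.312, 0.051 and 0.155 CPM in pqm-1(rhd90), against 0.559, 4.27 and 5.68 CPM in pqm-1(ok485) (log2 fold change -4.27 ± 1.09, edgeR adjusted p = 0.0345). Replicate 1 of pqm-1(ok485) was nearest to the pqm-1(rhd90) libraries. Summed over the list, levels were 98.6, 35 and 32.3 CPM in pqm-1(rhd90), against 165, 70.2 and 79.4 CPM in pqm-1(ok485), so the strains overlapped and replicate 1 was the highest of its strain in both. No member was called in 5 of the 6 fits that left out 1 library, and 9 were called without replicate 1 of pqm-1(ok485) and with the block. Of 15 moulting genes 2 fell (13.3%), the astacin proteases nas-37, which digests the old cuticle (-0.65 ± 0.10, edgeR adjusted p = 0.0046), and nas-36 (-0.76 ± 0.20, edgeR adjusted p = 0.0412). nas-37 stood at 27.8, 29.6 and 25.3 CPM in pqm-1(rhd90), against 47, 40.4 and 41.8 CPM in pqm-1(ok485), without overlap.

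All 20 body wall muscle markers had a negative log2 fold change and 7 were called (ttn-1, mlc-1, tni-1, unc-52, tnt-3, hlh-1 and unc-97), with a median of -0.67. The called share was 35%, against 7.39% of all genes tested. ttn-1, the titin gene, had 16.09, 27 and 23.1 CPM in pqm-1(rhd90), against 29.5, 40.7 and 52.9 CPM in pqm-1(ok485) (-0.89 ± 0.21, edgeR adjusted p = 0.0252). mlc-1, a myosin light chain, had 82.2, 128 and 110.1 CPM in pqm-1(rhd90), against 141, 196 and 192 CPM in pqm-1(ok485) (-0.72 ± 0.18, edgeR adjusted p = 0.0315). In both the groups were apart, but the gap was small beside the spread within each. The summed level was 2385.3, 3919 and 3236 CPM in pqm-1(rhd90), against 3641 and 4773 and 5613 CPM in pqm-1(ok485) in the order of the replicates, and the strains overlapped. The count of members called was 0 in 3 of the fits that left out 1 library, 16 without replicate 1 of pqm-1(ok485) and 19 of 20 with the replicate block.

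Markers of other tissues gave few calls. Called shares were 20% of epidermis, 9.09% of pharynx, 10.5% of neuron and 15.8% of intestine markers, against 7.39% of all genes tested. Among 15 epidermis markers bli-1, col-19 and ifb-1 fell, col-19 being the adult cuticle collagen (-0.51 ± 0.14, edgeR adjusted p = 0.0435). ifa-1, an intermediate filament gene, fell among 11 pharynx markers (-0.57 ± 0.12, edgeR adjusted p = 0.0157). egl-21 (-0.31 ± 0.07) and egl-3 (-0.37 ± 0.09), which encode processing enzymes of neuropeptides, fell among 19 neuron markers, with edgeR adjusted p of 0.0162 and 0.0224. None of 13 somatic gonad, uterus and coelomocyte markers was called. The intestine, the tissue in which PQM-1 is known to act, had 3 rises and no fall among 19 markers, and its median was 0.043. With the replicate block 6 intestine markers rose and 5 fell, and without replicate 1 of pqm-1(ok485) 5 rose and 2 fell. The block also raised the falls to 6 epidermis, 4 neuron and 2 pharynx markers.

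Genes of secreted immune proteins changed in both directions, and most of them were not called. The largest difference at high abundance was in lys-7, a lysozyme of the gut that is induced by bacteria and is a known DAF-16 target (reverse strand of chromosome V, 3481421 to 3482600, WBGene00003096). It had 22.1, 24 and 19.3 CPM in pqm-1(rhd90), against 109.6, 168 and 243 CPM in pqm-1(ok485). The highest pqm-1(rhd90) library lay far below the lowest pqm-1(ok485) library, and the log2 fold change was -2.99 ± 0.36 (edgeR adjusted p = 0.00115). The N2 libraries had 40.3, 24.9 and 31.6 CPM.

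Of 15 targets of the p38 MAP kinase PMK-1, which drives the intestinal defence against bacteria, 5 fell (33.3%, against 5.72% of all genes tested) and none rose, with a median of -0.61. They were F55G11.2, sysm-1, clec-67, dod-22 and irg-4. F55G11.2 had 1.41, 1.48 and 1.55 CPM in pqm-1(rhd90), against 7.2, 5.45 and 7.83 CPM in pqm-1(ok485) (-2.20 ± 0.23, edgeR adjusted p = 0.000425). sysm-1 had 0.417, 0.918 and 0.773 CPM in pqm-1(rhd90), against 2.11, 3.0 and 6.27 CPM in pqm-1(ok485) (-2.40 ± 0.48, edgeR adjusted p = 0.0122). The strains did not overlap in either. irg-4, an infection response gene with a CUB-like domain, had 6.2, 1.84 and 2.99 CPM in pqm-1(rhd90), against 29.1, 18 and 19.1 CPM in pqm-1(ok485) (-2.60 ± 0.71, edgeR adjusted p = 0.0441), and was the most abundant of the 5 called. Between 1 and 4 members fell when 1 library was left out. F55G11.2 lies in a run of 4 neighbouring tested genes, F55G11.8, dod-22, F55G11.2 and F55G11.4 (chromosome IV, 12962808 to 12975591), that all fell, by between 1.78 and 3.76 on the log2 scale.

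C-type lectins, secreted proteins that bind sugars, went both ways. Among those tested 15 fell, 3 rose and 86 were not called, so 17.3% were called, against 7.39% of all genes tested. When 1 library was left out the falls numbered 5 to 20 and the rises 2 to 12, with 5 falls without replicate 3 of pqm-1(rhd90) and the highest counts of both without replicate 1 of pqm-1(ok485), and the replicate block gave 24 falls and 6 rises. clec-66 fell (-0.90 ± 0.13, edgeR adjusted p = 0.00327) and so did clec-223 (-0.61 ± 0.09, edgeR adjusted p = 0.00358). clec-62 rose (0.79 ± 0.11, edgeR adjusted p = 0.0032), as did clec-97 and the abundant clec-63, at 1256, 1399.6 and 1182 CPM in pqm-1(rhd90), against 896, 821 and 960.3 CPM in pqm-1(ok485) (0.52 ± 0.10, edgeR adjusted p = 0.00887). Lysozymes and saposins gave 3 rises, lys-5, lys-6 and ilys-5, and 2 falls, lys-7 and spp-8, among 28 (17.9% called). ilys-5, an invertebrate-type lysozyme, had 955, 805 and 878 CPM in pqm-1(rhd90), against 674, 498 and 507 CPM in pqm-1(ok485) (0.65 ± 0.14, edgeR adjusted p = 0.0152), and so moved against lys-7. Lysozyme and saposin rises were 11 with the replicate block and 1 to 9 when 1 library was left out, 9 without replicate 1 of pqm-1(ok485). Of 15 epidermal antimicrobial peptide genes nlp-24 (-0.79 ± 0.12, edgeR adjusted p = 0.00382) and nlp-30 (-1.62 ± 0.32, edgeR adjusted p = 0.0108) fell, 13.3% of the list.

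Genes known to be regulated by DAF-16 gave an uneven picture. Of 12 genes repressed by DAF-16, 4 fell (dct-17, dod-19, dod-22 and the insulin-like gene ins-7) and none rose, with a median of -0.54. The called share was 33.3%, against 7.39% of all genes tested. dct-17 had 5.47, 5.2 and 4.48 CPM in pqm-1(rhd90), against 9.44, 9.72 and 10.4 CPM in pqm-1(ok485), without overlap (-0.96 ± 0.13, edgeR adjusted p = 0.00242). Of 16 genes induced by DAF-16 none was called, their median was 0.33, and 5 rose with the replicate block; lys-7 is not on that list. None of 7 superoxide dismutase and catalase genes was called. Among 12 metal response genes 2 fell (16.7%), cdr-7 (-0.85 ± 0.22) and the ferritin ftn-2 (-0.29 ± 0.08), with edgeR adjusted p of 0.0346 and 0.0379.

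Proteases of the gut lumen and lysosome were the list with the highest share of rises. These aspartyl (asp) and cathepsin B-like (cpr) proteases digest food and recycle protein in the intestine. Of 21 tested 8 rose (asp-6, asp-12, cpr-5, asp-3, cpr-8, asp-5, asp-1 and asp-8) and 1 fell (asp-14), with a median of 0.36. The called share was 42.9%, against 7.39% of all genes tested. Summed levels were 16255 and 15633 and 15338 CPM in pqm-1(rhd90), against 13686 and 10672 and 12148 CPM in pqm-1(ok485), without overlap. asp-6 had 2063, 2164 and 2026 CPM in pqm-1(rhd90), against 1429.7, 1245 and 1450.2 CPM in pqm-1(ok485) (0.60 ± 0.07, edgeR adjusted p = 0.00075). asp-3 had 1839.8, 1756 and 1659.9 CPM in pqm-1(rhd90), against 1369.5, 1121 and 1275 CPM in pqm-1(ok485) (0.48 ± 0.09, edgeR adjusted p = 0.00975). These abundant proteases differed by under 2-fold with every pqm-1(rhd90) library higher. asp-12 differed most, at 64, 36.7 and 34.9 CPM in pqm-1(rhd90), against 8.55, 4.32 and 5.47 CPM in pqm-1(ok485) (2.85 ± 0.39, edgeR adjusted p = 0.00277), and replicate 1 was the highest library of both strains.

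asp-6, asp-12 and asp-5 are neighbours on chromosome V (8267511 to 8274046), and cpr-5 and cpr-8 lie together with W07B8.4 on the same chromosome (1130088 to 1139172); each run rose as a whole. asp-14 had 41.4, 65.9 and 67.8 CPM in pqm-1(rhd90), against 113, 129 and 137 CPM in pqm-1(ok485) (-1.11 ± 0.15, edgeR adjusted p = 0.0032), again with no overlap. cpr-5, asp-3 and asp-1 also make up the 3 rises among the intestine markers, with cpr-5 at 249.9, 229 and 209 CPM in pqm-1(rhd90), against 163.8, 133 and 163 CPM in pqm-1(ok485) (0.58 ± 0.10, edgeR adjusted p = 0.00595). Between 4 and 11 proteases rose when 1 library was left out and 14 with the block.

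Detoxification genes rose in small numbers. Cytochrome P450 enzymes oxidise foreign compounds and lipids, and glutathione transferases and UDP-glucuronosyltransferases attach soluble groups. Of 56 P450 genes 5 rose (cyp-35B1, cyp-35B2, cyp-35B3, cyp-25A1 and cyp-13A1) and none fell. cyp-35B2 had 31.1, 20.2 and 31.9 CPM in pqm-1(rhd90), against 12.4, 5.07 and 8.63 CPM in pqm-1(ok485) (1.65 ± 0.29, edgeR adjusted p = 0.00672). cyp-25A1 had 19.4, 10.7 and 19.2 CPM in pqm-1(rhd90), against 5.2, 1.78 and 3.0 CPM in pqm-1(ok485) (2.26 ± 0.47, edgeR adjusted p = 0.0146). The groups were apart in both, and replicate 1 of pqm-1(rhd90) was the highest library in cyp-25A1, whose call was lost in 4 of the 6 fits without a library. The 3 cyp-35B genes are neighbours on chromosome V (3939032 to 3947044), and cyp-35B1 rose by 1.34 ± 0.20 (edgeR adjusted p = 0.00382).

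With the replicate block 14 P450 genes rose and 2 fell. Of 54 UDP-glucuronosyltransferase genes ugt-18 and ugt-19 rose and ugt-47 fell. ugt-18 had 2.45, 3.01 and 3.97 CPM in pqm-1(rhd90), against 0.23, 0.423 and 0.0536 CPM in pqm-1(ok485) (3.68 ± 0.55, edgeR adjusted p = 0.00382), close to absent in the second strain. Of 32 glutathione transferase genes gst-38 (1.02 ± 0.20, edgeR adjusted p = 0.0116), gst-29 and gst-42 rose and gst-27 fell. F-box genes, which encode substrate adaptors of ubiquitin ligases, had 6 rises and 1 fall among 203, and MATH and BTB domain genes 3 rises and no fall among 68. bath-26 (1.17 ± 0.17, edgeR adjusted p = 0.00362) and fbxa-192 (0.67 ± 0.12, edgeR adjusted p = 0.00829) were among them. Called shares were 3.45% of F-box genes, 4.41% of MATH and BTB domain genes and 5.56% of UDP-glucuronosyltransferase genes. All lay below the 7.39% of all genes tested, a share made up mostly of falls. Rises alone were 1.67% of all genes tested, and each of these families had a larger share of rises. The called shares were 8.93% of P450 genes, all of them rises, and 12.5% of glutathione transferase genes. Without replicate 1 of pqm-1(ok485) 23 F-box genes and 9 MATH and BTB domain genes rose, while gst-29 was not called (edgeR adjusted p = 0.055). With the replicate block 13 F-box genes, 8 glutathione transferase genes and 6 UDP-glucuronosyltransferase genes rose, and 5 of the last family fell.

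Genes of fat metabolism gave few calls. Called shares were 4.35% of fatty acid synthesis and desaturation genes, 8.7% of lipolysis and fatty acid oxidation genes and 17.6% of lipid binding genes. The share over all genes tested was 7.39%. Of 23 genes of fatty acid synthesis and desaturation elo-8, an elongase gene near the limit of detection, was the only call (-2.63). Of 23 genes of lipolysis and fatty acid oxidation ech-9, an enoyl-CoA hydratase gene, rose and lipl-2, a lysosomal lipase gene, fell. ech-9 had 2.45, 7.39 and 5.88 CPM in pqm-1(rhd90), against 0.691, 2.07 and 1.5 CPM in pqm-1(ok485) (1.92 ± 0.46, edgeR adjusted p = 0.0267). Of 17 lipid binding genes far-1, far-3 and far-6, which encode binding proteins of fatty acids and retinol, fell. far-3 had 2.66, 1.38 and 1.49 CPM in pqm-1(rhd90), against 11.8, 5.68 and 4.72 CPM in pqm-1(ok485) (-2.02 ± 0.39, edgeR adjusted p = 0.0104). The strains did not overlap in either gene.

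Stress and housekeeping lists gave hardly any calls. None of 10 cytosolic heat shock genes, 10 mitochondrial stress genes, 9 HIF-1 pathway genes, 33 proteasome subunit genes, 21 histone genes or 14 genes of the mitochondrial genome was called. pdi-2 fell among 14 ER chaperone genes (-0.27 ± 0.07, edgeR adjusted p = 0.0394), and rpl-11.2 (-0.55 ± 0.08, edgeR adjusted p = 0.00448) and rpl-25.1 fell among 80 ribosomal protein genes. Of 167 nuclear hormone receptor genes 6 fell and none rose, nhr-62 (-1.11 ± 0.20, edgeR adjusted p = 0.00837) and nhr-50 having the smallest p. These falls were 3.59% of the list, below the 5.72% of all genes tested that fell. ptr-8 and ptr-14 fell among 50 hedgehog-related and patched-related genes, pals-32 among 18 pals genes, and ins-7 among 11 insulin-like peptide genes. Called shares were 7.14% of ER chaperone, 2.5% of ribosomal protein, 4% of hedgehog-related and patched-related, 5.56% of pals and 9.09% of insulin-like peptide genes. The share over all genes tested was 7.39%. Without replicate 1 of pqm-1(ok485) neither pdi-2 nor ptr-14 was called (edgeR adjusted p = 0.0558 and 0.0537), while 6 proteasome subunit genes, 5 ribosomal protein genes, 4 nuclear hormone receptor genes and 4 hedgehog-related and patched-related genes rose. With the replicate block 4 proteasome subunit genes rose, 10 nuclear hormone receptor genes fell and 2 rose, and 6 hedgehog-related and patched-related genes fell.

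**Figure D4:**
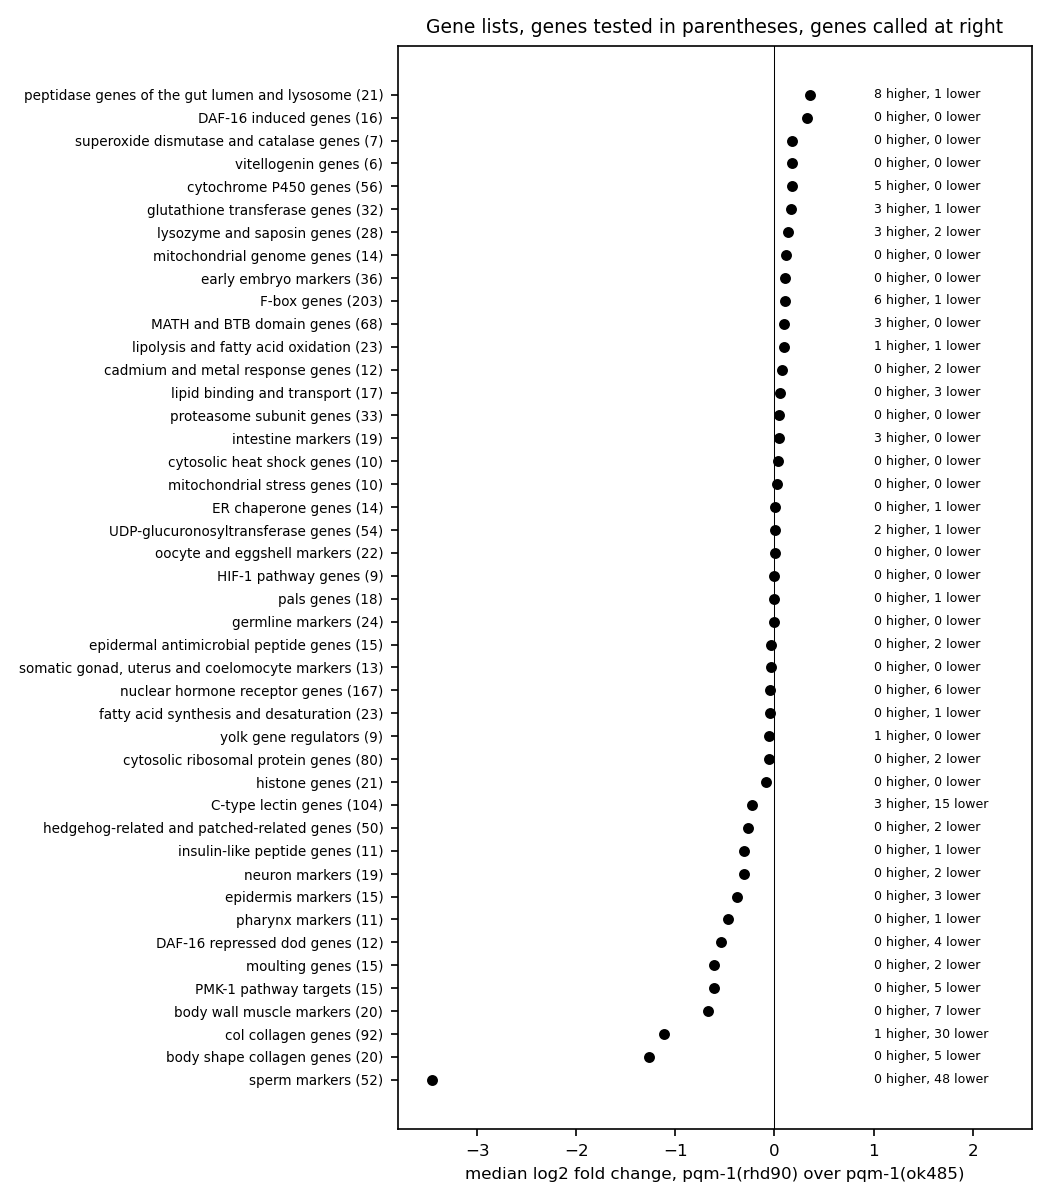
Median log2 fold change of pqm-1(rhd90) over pqm-1(ok485) over the tested members of each gene list with at least 5 tested, with the members called at the right; the median over all genes tested is -0.002. Sperm markers lie lowest at -3.46, collagens and body wall muscle markers follow, and proteases lie highest at 0.36.

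Single genes marked the strains more sharply than any list of somatic genes. C08F11.7 (forward strand of chromosome IV, 13637288 to 13638525, WBGene00007454), a protein-coding gene with no name, had 14.7, 10.5 and 13.4 CPM in pqm-1(rhd90), against 0.658, 0.516 and 0.429 CPM in pqm-1(ok485). It rose by 4.54 ± 0.21 (edgeR adjusted p = 2.77e-07), with N2 at 0.655, 0.584 and 0.44 CPM, the level of pqm-1(ok485). Y69H2.3 (reverse strand of chromosome V, 18656094 to 18664116, WBGene00013481) had 19.2, 20.5 and 19.2 CPM in pqm-1(rhd90), against 119.5, 126 and 131 CPM in pqm-1(ok485), a tight separation with a log2 fold change of -2.68 ± 0.13 (edgeR adjusted p = 3.55e-07) and N2 at 128, 111 and 111 CPM. In C08F11.7, Y69H2.3 and col-135 pqm-1(rhd90) was thus the strain far from the wild type level.

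cls-3, which encodes a protein of the CLASP family of microtubule binding proteins (reverse strand of chromosome III, 9186556 to 9191127, WBGene00013847), had 97.8, 86.4 and 89.6 CPM in pqm-1(rhd90), against 29.4, 25.3 and 23.4 CPM in pqm-1(ok485) (1.80 ± 0.10, edgeR adjusted p = 6.82e-07), with N2 at 26.4, 29.8 and 31.3 CPM. As in C08F11.7, the wild type level lay by pqm-1(ok485). Other rises among the 12 largest were F35F10.5 (2.90 ± 0.29), Y37H2A.14 (2.11 ± 0.42), ZK896.5 (1.45 ± 0.22), ZC204.14 (1.36 ± 0.20) and the pseudogenes WBGene00021055 (1.63 ± 0.14) and WBGene00014955 (1.46 ± 0.15). Their edgeR adjusted p lay between 5.56e-05 and 0.0121. F35F10.5 had 6.35, 11.16 and 10.8 CPM in pqm-1(rhd90), against 1.28, 1.36 and 1.13 CPM in pqm-1(ok485), and it ends a run of 3 genes that rose on chromosome V with T28A11.2 and T28A11.25.

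Near pqm-1 itself calls were about as dense as on the rest of its chromosome. Within 1 Mb of the gene 25 of 330 genes tested were called (7.58%), and within 2 Mb 53 of 623 (8.51%), against 7.52% over the whole of chromosome II. One neighbour stood out. Y17G7B.23 (forward strand of chromosome II, 11999260 to 12001422, WBGene00044030) had 0.104, 0.051 and 0.0515 CPM in pqm-1(rhd90), against 4.21, 5.21 and 3.48 CPM in pqm-1(ok485), a log2 fold change of -5.86 ± 0.33 (edgeR adjusted p = 1.04e-06). It was nearly undetected in pqm-1(rhd90) and in N2, at 0, 0.18 and 0.0488 CPM, and present in every pqm-1(ok485) library. M28.9 (-3.76 ± 0.59), T27D12.1 (-0.64 ± 0.11), ptr-8 (-0.46 ± 0.09) and W02B12.12 (-2.84 ± 0.58) fell and T05B9.1 rose (0.20 ± 0.04) in the same window, with edgeR adjusted p between 0.00473 and 0.0129. Whether the strains differ at sites linked to pqm-1 was not tested.

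The same allele contrast in animals that also carry ceh-60(ok1485) rests on 6 other libraries. There 1900 genes were called (14.3%), 1051 higher (7.89%) and 849 lower (6.37%) in ceh-60;pqm-1(rhd90) than in ceh-60;pqm-1(ok485). Both contrasts called 664 genes, 67.5% of the first list and 34.9% of the second; 503 were lower and 151 higher in both, and 10 had opposite signs. Of the 570 genes that differed at least 2-fold with ceh-60 intact, 499 (87.5%) were called in the same direction in the ceh-60 mutants. The sign was the same for 93.7% of the 984 genes called, against 68.1% of all genes tested.

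All 48 sperm markers that fell with ceh-60 intact also fell in the ceh-60 mutants, where the list's median was -3.07 and the sum over all 66 was 16.6, 53.3 and 38.3 CPM in ceh-60;pqm-1(rhd90), against 136.7, 414.7 and 199.5 CPM in ceh-60;pqm-1(ok485). The strains did not overlap there either. col-135 had 1.22, 0.614 and 0.407 CPM in ceh-60;pqm-1(rhd90), against 36.9, 35.2 and 29.7 CPM in ceh-60;pqm-1(ok485) (-5.44 ± 0.25, edgeR adjusted p = 1.36e-07). C08F11.7 had 10.8, 7.88 and 10.2 CPM in ceh-60;pqm-1(rhd90), against 0.47, 0.364 and 0.509 CPM in ceh-60;pqm-1(ok485) (4.40 ± 0.22, edgeR adjusted p = 2.28e-07). Both repeat the separation seen with ceh-60 intact, as did Y69H2.3 (-2.74 ± 0.13), Y17G7B.23 (-5.47 ± 0.32) and lys-7 (-2.10 ± 0.34), with edgeR adjusted p between 1.36e-07 and 0.00227. asp-12 rose by 1.76 ± 0.36 (edgeR adjusted p = 0.00648). By list, 39 of 92 col collagens fell, 11 of 21 proteases rose, 15 of 56 P450 genes rose and 5 of 15 PMK-1 targets fell while 2 rose.

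**Figure D5:**
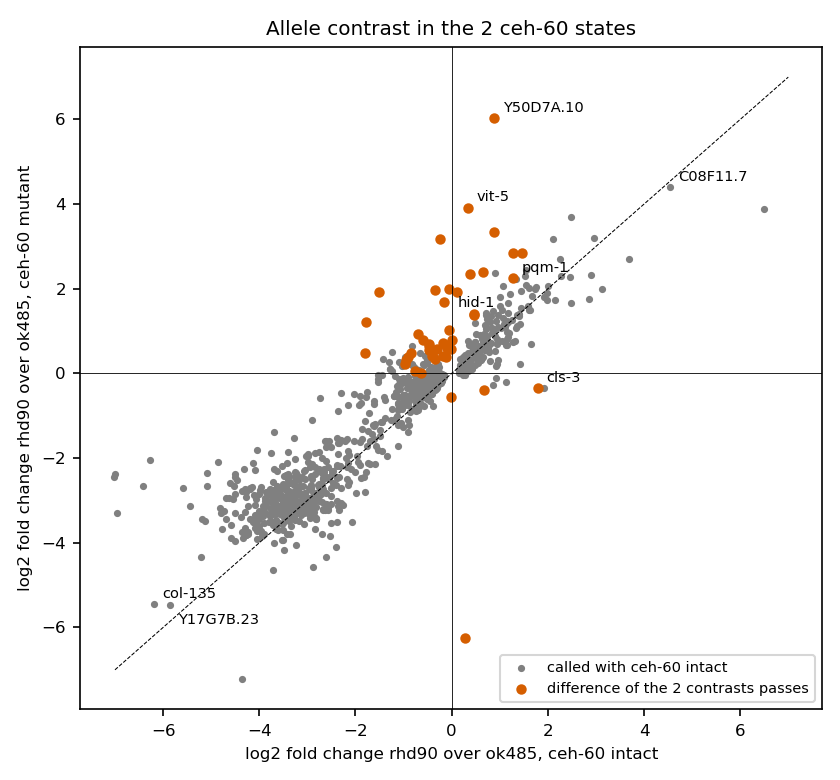
Log2 fold change of rhd90 over ok485 with ceh-60 intact (x axis) and in ceh-60 mutants (y axis), for genes called in the first contrast (grey) and genes whose 2 contrasts differ (orange); the dashed line marks equal values. Most grey points lie near the line, and cls-3, Y50D7A.10, hid-1 and vit-5 lie away from it.

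The difference between the contrasts was tested in the same fit and called 46 genes (0.345%), 4 with a more positive allele difference when ceh-60 was intact (0.03%) and 42 with a more negative one (0.315%). The 4 were cls-3, fbxa-192, W02D7.6 and W02D7.4. W02D7.4, named after its values were seen, had 0, 0 and 0 CPM in ceh-60;pqm-1(rhd90), against 0.214, 0.592 and 0.47 CPM in ceh-60;pqm-1(ok485), and 2.71, 3.16 and 3.04 CPM in pqm-1(rhd90), against 2.99, 2.35 and 1.98 CPM in pqm-1(ok485). It was thus at 0 in ceh-60;pqm-1(rhd90) alone. pqm-1 was one of the 42. It had 22.9, 21.8 and 25 CPM in ceh-60;pqm-1(rhd90), against 4.79, 5.38 and 4.42 CPM in ceh-60;pqm-1(ok485) (2.26 ± 0.10, edgeR adjusted p = 1.36e-07), a wider separation than with ceh-60 intact, and the difference was -0.97 ± 0.14 on the log2 scale (edgeR adjusted p = 0.0125). vit-5 stood at 103, 42.3 and 146 CPM in ceh-60;pqm-1(rhd90), against 8.37, 5.15 and 5.75 CPM in ceh-60;pqm-1(ok485), with ceh-60;pqm-1(rhd90) higher (3.92 ± 0.38, edgeR adjusted p = 0.000112), whereas with ceh-60 intact it was not called, and the difference was -3.58 ± 0.48 (edgeR adjusted p = 0.0113). vit-3 (1.76 ± 0.42), vit-4 (1.27 ± 0.20) and vit-6 (2.66 ± 0.48) were also higher in ceh-60;pqm-1(rhd90), with edgeR adjusted p between 0.00205 and 0.0141. vit-2 went the other way, at 487, 346 and 471 CPM in ceh-60;pqm-1(rhd90), against 1516, 583 and 1066 CPM in ceh-60;pqm-1(ok485) (-1.28 ± 0.26, edgeR adjusted p = 0.00627), and vit-1 was not called. For these 5 the difference between the contrasts was not called. All ceh-60 mutants had little vitellogenin, between 0.09% and 0.278% of counts.

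cls-3 showed the opposite pattern, at 23.4, 22 and 22.6 CPM in ceh-60;pqm-1(rhd90), against 32.9, 26.3 and 27 CPM in ceh-60;pqm-1(ok485), all near the N2 level. There it was called lower in ceh-60;pqm-1(rhd90) (-0.34 ± 0.10, edgeR adjusted p = 0.0352). The difference between the contrasts was 2.15 ± 0.14 (edgeR adjusted p = 1.21e-05). Y50D7A.10 had 15.2, 15 and 15.7 CPM in pqm-1(rhd90), against 8.88, 6.76 and 9.11 CPM in pqm-1(ok485), and was called (0.89 ± 0.17, edgeR adjusted p = 0.00975). In the ceh-60 mutants it had 15.4, 14.6 and 15.5 CPM in ceh-60;pqm-1(rhd90), against 0.0427, 0.41 and 0.235 CPM in ceh-60;pqm-1(ok485). The last strain alone nearly lacked the transcript, and the difference was -5.14 ± 0.34 (edgeR adjusted p = 1.21e-05). hid-1, which acts in the making of dense-core vesicles, had 26.3, 23.5 and 21.6 CPM in ceh-60;pqm-1(rhd90), against 6.49, 5.97 and 5.36 CPM in ceh-60;pqm-1(ok485). With ceh-60 intact it was not called (-0.06 ± 0.09, edgeR adjusted p = 0.772), and the difference was -2.06 ± 0.14 (edgeR adjusted p = 1.21e-05). In cls-3, Y50D7A.10 and hid-1 1 of the 4 strains stood furthest from the others. Whether these differences follow from the alleles named in the genotype was not tested.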

How the data were processed

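RNA of whole worms was extracted with Trizol and sequenced from TruSeq RNA v2 libraries, per the labels. Alignment was with STAR 2.5.4, per the submitters' processing notes; per the file headers, the deposited values are raw counts per gene from featureCounts 1.5.2 with the annotation of WormBase release 260. Strand was ignored and reads of several places or genes were left out, per the file headers, so near-identical paralogs and overlapping genes are uncertain. Symbols were found for 43818 of 46778 genes.

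The 12 libraries with a pqm-1 allele were fitted together (4 groups, 8 residual degrees of freedom, biological coefficient of variation 0.106) with edgeR 4.0.16 in R 4.3.3: filterByExpr by group, TMM scaling, quasi-likelihood F-tests, Benjamini-Hochberg adjustment over 13324 genes, threshold 0.05. SEs come from the F statistic. No pair of replicates was alike within sampling noise (chi-square per degree of freedom at least 4.66). On counts simulated for the comparison with ceh-60 intact the test recovered 42% of genes changed by 0.585 and 62% of those changed by 1 on the log2 scale, with 5 false calls among 13103 genes. The simulated counts had no library that stood apart and no effect of the replicate number, so these figures may not hold for the real libraries. Total counts set the precision; 19725463 was the lowest total.

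Named genes were pqm-1, ceh-60, the vitellogenins, the 12 largest rises and falls among called genes without overlap that averaged 5 CPM or more, up to 2 rises and 2 falls of each list by p, called genes within 1 Mb of pqm-1 (up to 6), and, with the same mean, up to 4 of the largest differences of the contrasts in each direction (3 passed in the positive one). Others printed were chosen after their values were seen. The members, gene lists and rules were chosen with earlier results of these data known. Same-numbered replicates deviated together for numbers 1 and 2 (correlations 0.47 and 0.39) but hardly for number 3 (0.12). Replicate 2 of pqm-1(rhd90) also went with replicate 3 of pqm-1(ok485) (0.31). The numbers, given in the titles, may thus pair the libraries with ceh-60 intact, but the correlations do not settle it. The values printed come from the fit without the block. Blocked values stand beside them, or in the closing section, where they change a call or move a count by over 1.5 times. Alternatives were DESeq2 1.42.0, RLE scaling, no filter on low counts, the 6 compared libraries alone, the replicate block and leaving out each library. Promoter sequences were not used here.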

Additional observations from a re-analysis of the deposited data

Results flagged for a closer look

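The following genes are singled out because the allele difference with ceh-60 intact differed, by the interaction test of edgeR, from that in the ceh-60 mutants. Each value is the log2 fold change of rhd90 over ok485 with ceh-60 intact minus the same in ceh-60 mutants, with its SE. The difference was 2.15 ± 0.14 for cls-3 (edgeR adjusted p = 1.21e-05), 1.05 ± 0.17 for the F-box gene fbxa-192 (edgeR adjusted p = 0.0286) and 0.54 ± 0.09 for W02D7.6 (edgeR adjusted p = 0.0286). For W02D7.4 the fitted difference was 6.53 ± 0.93 (edgeR adjusted p = 0.0227), a size that depends on the prior count because every ceh-60;pqm-1(rhd90) library was at 0. The difference was -5.14 ± 0.34 for Y50D7A.10 (edgeR adjusted p = 1.21e-05), -3.58 ± 0.48 for vit-5 (edgeR adjusted p = 0.0113) and -2.06 ± 0.14 for hid-1 (edgeR adjusted p = 1.21e-05). It was -1.97 ± 0.29 for the pseudogene WBGene00020981 (edgeR adjusted p = 0.0162) and -1.38 ± 0.21 for the pseudogene WBGene00014955 (edgeR adjusted p = 0.0207). dct-17 had -1.19 ± 0.16 (edgeR adjusted p = 0.0113) and pqm-1 -0.97 ± 0.14 (edgeR adjusted p = 0.0125).

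In W02D7.6 the alleles did not separate with ceh-60 intact (-0.01 ± 0.06) and ceh-60;pqm-1(rhd90) was lower (-0.55 ± 0.06). In fbxa-192 the sign turned, with 0.67 ± 0.12 when ceh-60 was intact and -0.38 ± 0.12 in the ceh-60 mutants, the second not called. WBGene00014955 had 42, 46.5 and 46.9 CPM in ceh-60;pqm-1(rhd90), against 6.54, 5.74 and 6.62 CPM in ceh-60;pqm-1(ok485), and with ceh-60 intact 13.9, 19.7 and 20.4 CPM in pqm-1(rhd90), against 5.36, 7.09 and 7.4 CPM in pqm-1(ok485). The rise was thus present in both ceh-60 states. dct-17 stood at 43.5, 36.3 and 31.9 CPM in ceh-60;pqm-1(rhd90), against 33.5, 32.4 and 29.6 CPM in ceh-60;pqm-1(ok485), several times its level with ceh-60 intact in both strains, and was not called there (0.23 ± 0.10).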

How the results depend on the processing

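With ceh-60 intact the 984 calls became 616 with the 6 compared libraries alone, 2069 with the replicate block, 1652 with the block and those 6 libraries (added after the data were seen), and 187 to 2186 when 1 library was left out; DESeq2, RLE scaling and no filter stayed within 1.5 times. In the ceh-60 mutants the 1900 calls became 3274 with the replicate block and 947 to 2123 when 1 library was left out: 947 and 1069 without replicate 1 or 3 of ceh-60;pqm-1(rhd90) and 1102 without replicate 2 of ceh-60;pqm-1(ok485). There the same-numbered replicates did not all deviate together (0.31, 0.22 and -0.007), so the block is an alternative only. The 46 genes whose contrasts differed became 111 with DESeq2, 96 with no filter, 241 with the replicate block and 14 to 100 when 1 library was left out. The vitellogenin share difference, 0.541 points also with the replicate block, ranged over -0.0821 to 1.11 when 1 library was left out and turned negative without replicate 2 of pqm-1(ok485). The cause of these shifts was not tested.

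Of 89 named genes that were called, 37 were called in all 6 fits that left out 1 library of the comparison, 28 were lost in 1 to 3 and 24 in 4 to 6. The 24 were cyp-25A1, elo-8, lipl-2, far-6, pdi-2, ins-7, ilys-5, spp-8, pals-32, gst-29, gst-27, ugt-19, ugt-47, cdr-7, ftn-2, col-95, bli-1, dpy-5, ptr-14, nas-36, fbxa-105, ttn-1, mlc-1 and col-19. No called gene among the 89 turned its direction in any alternative; vit-2, vit-3, vit-6, hid-1 and W02D7.6, none of them called and all near 0, changed sign in some. Without replicate 1 of pqm-1(ok485) fbxa-105 was among the calls lost, and the rises numbered 8 P450, 5 UDP-glucuronosyltransferase, 5 lipolysis, 4 lipid binding and 3 fatty acid synthesis genes. With the block the lists not followed above had 3 rises of metal response genes, 3 of lipolysis, 1 of fatty acid synthesis, 1 of lipid binding, 2 each of superoxide dismutase and catalase, mitochondrial stress and mitochondrial genome genes, and 1 each of heat shock, HIF-1 pathway, ER chaperone and somatic gonad genes. It gave 2 rises and 4 falls of antimicrobial peptide genes, 5 rises and 2 falls of MATH and BTB domain genes, 4 falls of moulting genes, 2 each of insulin-like, pals, lipolysis and fatty acid synthesis genes, and 1 of HIF-1 pathway genes. The replicate block lost none of the 89 and added vit-4, which DESeq2, no filter and leaving out replicate 1 of pqm-1(ok485) also called. No scaling moved the median of all genes by 0.1. Depth limits weakly expressed genes most, and a missed threshold does not show equal levels. Promoter letters were not searched, since no promoter sequence was used here.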
